A study of Mus musculus with 24 samples.

Results

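The matrilins and the cartilage oligomeric matrix protein are adaptor proteins of the extracellular matrix. The mouse genes for them are Matn1, Matn2, Matn3, Matn4 and Comp, and the 5 were taken by symbol from 2 expression tables of the distal femur, which is the knee end of the thigh bone. All 5 were among the 18052 genes of the intensity table of sorted cells and among the 20889 genes of the activity score table of bulk tissue and factor-treated joints. A filter on low values kept 5 of the 5 in sorted cells and 4 of the 5 in bulk tissue, where Matn4 failed it.

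All arrays were of C57BL/6J mice. Skeletal stem cells, which can give rise to cartilage, bone and stroma, were sorted from newborns at postnatal day 3 (4 arrays), from uninjured adults of 9 to 25 weeks (3 arrays) and from adults of that age whose joints had been microfractured (3 arrays), a surgical perforation of the bone beneath joint cartilage. The sort kept cells without surface CD45, TER119, TIE2, THY1, 6C3 and CD105 that carried ITGAV (integrin alpha V), and 500 to 1000 cells were collected for an array, so RNA was amplified in 2 rounds before labelling. Bulk tissue was crushed whole bone from newborns (3 arrays), uninjured adults (5 arrays) and microfractured adults (3 arrays). Sorted cells of microfractured adult joints treated with PBS, BMP2 or VEGFR1 were on 1 array each. No label ties an array to an animal, so p-values measure the spread between arrays, which may be technical. Sorted-cell replicates correlated across genes at 0.949 to 0.968 among newborns and at 0.834 to 0.917 within the adult groups, and bulk replicates at 0.275 to 0.708.

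Matrilins carry von Willebrand factor A domains and join into oligomers through a coiled coil. They bind collagen fibrils, aggrecan and small leucine-rich proteoglycans and so link the fibres of cartilage to its proteoglycans. MATN1 and MATN3 are proteins of growing cartilage, while MATN2 and MATN4 are also found in loose connective tissue. COMP, also called thrombospondin 5, is a pentamer that binds collagens II and IX and is abundant in cartilage, tendon and ligament. In humans, mutations of MATN3 and COMP are known in multiple epiphyseal dysplasia.

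In sorted cells Matn1 and Matn3 had the largest age differences of the 5 members, and the bases before their start sites are shown for that reason. They are from RefSeq on GRCm38.p6. The gene body of Matn1 spans chr4:130944385-130955476 and the printed window lies directly before it on the plus strand at chr4:130944135-130944384. The gene body of Matn3 spans chr12:8947929-8972028, with its window on the plus strand at chr12:8947679-8947928. Capitals mark matches to the motifs described next.
Matn1: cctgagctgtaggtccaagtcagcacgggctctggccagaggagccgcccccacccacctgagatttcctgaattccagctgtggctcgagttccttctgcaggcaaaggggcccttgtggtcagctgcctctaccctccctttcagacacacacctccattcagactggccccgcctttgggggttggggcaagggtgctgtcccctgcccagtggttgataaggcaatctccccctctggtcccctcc
Matn3: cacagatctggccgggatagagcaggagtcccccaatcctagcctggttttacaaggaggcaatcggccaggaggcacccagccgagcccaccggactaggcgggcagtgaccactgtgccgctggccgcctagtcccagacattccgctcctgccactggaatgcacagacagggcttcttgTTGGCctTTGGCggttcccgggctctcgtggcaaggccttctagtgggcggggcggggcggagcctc

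SOX9, SOX5 and SOX6, the transcription factors that drive the cartilage programme, and nuclear factor I are known to act on matrilin genes. Both strands of these 250 bases were searched for the SOX core ACAAT, the related core ACAAAG, the nuclear factor I half-site TTGGC and the TATA box TATAAA. The Matn3 window held 2 matches to TTGGC, and the SOX cores and TATAAA were in neither window. Matn1 held no match to the 4 motifs. Of all 32851 promoter windows of that length, 27.7% held ACAAT, 16.5% held ACAAAG, 41.5% held TTGGC and 12.4% held TATAAA. Of the other members Matn4 had 2 windows, of which 1 held TTGGC and 0 held a SOX core, so 3 of the 5 genes could be searched.

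Matn1 was high in every newborn stem cell array and low in every adult one. Its MAS5 intensity, a linear array signal scaled by the authors to a shared mean, was 8364, 7997, 7398 and 8736 in newborns. It was 158, 161 and 302 in uninjured adults, and 16.2, 80.9 and 36.1 after microfracture. The 3 groups did not overlap, with newborns highest and microfractured adults lowest. Tested as log2(intensity + 16) in limma across all 10893 genes that passed the filter, Matn1 was higher in newborns than in uninjured adults by 5.25 ± 0.32 (SE, adjusted p = 1.38e-07) and higher than in microfractured adults by 7.22 ± 0.32 (adjusted p = 1.92e-08). Matn1 passed the filter, which asked for more than 250 units in 3 arrays, through its 4 newborn arrays, since 1 of the 6 adult arrays was above that level, so these differences were in part set by the filter. The adult values lay close to the low end of the signal described next, so no fold is given.

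Between microfractured and uninjured adults Matn1 differed by -1.97 ± 0.35 on the log2 scale (limma adjusted p = 0.00228), but both groups lay at the low end of the signal, which moved the same way. The call ended with quantile normalization, where the difference was -0.84 (adjusted p = 0.193). As a gauge of the low end, 63 genes for olfactory and vomeronasal receptors were taken, which bone cells are not known to use. Their median intensity was 117 to 211 on the uninjured adult arrays, 14.5 to 46.3 on the microfractured ones and 16.7 to 27.2 on the newborn ones. On uninjured adult replicates 1, 2 and 3 it was 211, 117 and 138, beside the Matn1 values of 158, 161 and 302. On microfractured adult replicates 1, 2 and 3 it was 46.3, 36.8 and 14.5, beside Matn1 values of 16.2, 80.9 and 36.1. A change of Matn1 and a shift of the low end therefore cannot be told apart between the adult groups.

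Matn3 had the same age pattern with a wider adult spread. Its intensity was 12134, 12063, 11266 and 8973 in newborns, 436, 1820 and 1458 in uninjured adults, and 237, 747 and 1019 after microfracture. Newborn arrays lay above every adult array, and the adult groups overlapped. Newborns were higher than uninjured adults by 3.37 ± 0.48 (limma adjusted p = 0.000111) and higher than microfractured adults by 4.24 ± 0.48 (adjusted p = 2.23e-05). Microfractured and uninjured adults differed by -0.87 ± 0.52, which did not pass (adjusted p = 0.212, 95% interval -1.99 to 0.25). Without uninjured adult replicate 1, the lowest of its group, the difference was -1.49 and passed (adjusted p = 0.0327). It was -0.48 without uninjured adult replicate 2 and -0.27 without microfractured replicate 1, and neither passed.

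Matn2 ran the other way across age in sorted cells and was highest after microfracture. Its intensity was 1349, 1165, 1324 and 1323 in newborns, 1922, 1476 and 1945 in uninjured adults, and 2693, 3071 and 2798 after microfracture. The groups did not overlap, and newborns were the lowest. Matn2 rose after microfracture by 0.68 ± 0.17 (limma adjusted p = 0.00938) and newborns differed from microfractured adults by -1.14 ± 0.16 (adjusted p = 0.000108). Against uninjured adults the newborn difference was -0.45 ± 0.16 (adjusted p = 0.0265), but it turned to 0.25 (adjusted p = 0.248) when arrays were centred on their medians, a scaling that moved the median of all genes from -0.02 to 0.68. It also did not pass without newborn replicate 2 or 3 or uninjured adult replicate 1 or 3 (adjusted p 0.0765, 0.0539, 0.0752 and 0.0914). The rise after microfracture ended with quantile normalization (0.26, adjusted p = 0.301) and with the adult groups fitted alone (adjusted p = 0.0534).

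Comp read 8218 units or more on all 10 sorted-cell arrays, and its groups overlapped. Newborn arrays read 10928, 8715, 10783 and 8684, uninjured adult arrays 19923, 14838 and 8433, and microfractured adult arrays 20395, 8218 and 9983. The adult arrays varied more than the newborn ones (SD 5757 and 6580, against 1246; n = 3, 3 and 4). Comp differed by -0.48 ± 0.33 between newborns and uninjured adults (limma adjusted p = 0.232, 95% interval -1.19 to 0.23), by -0.29 ± 0.33 between newborns and microfractured adults (adjusted p = 0.525) and by -0.19 ± 0.35 after microfracture (adjusted p = 0.711). The signs of the first and last of these turned with median centring, to 0.22 and 0.46, and neither passed.

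Only in uninjured adults did Matn4 lie at the low end of the signal, as gauged by the receptor genes above. On uninjured adult replicates 1, 2 and 3 the receptor median was 211, 117 and 138, above Matn4 on replicates 1 and 3. The median was 46.3, 36.8 and 14.5 on microfractured replicates 1, 2 and 3, and 16.7 to 27.2 on newborn arrays. Matn4 lay above it on every microfractured and newborn array. Its intensity was 175, 294, 251 and 306 in newborns, 87.4, 213 and 82.8 in uninjured adults, and 215, 60.4 and 122 after microfracture. It passed the filter through 3 newborn arrays alone, so its newborn differences were in part set by the filter. Newborns differed from uninjured adults by 1.01 ± 0.43 (limma adjusted p = 0.0612) and from microfractured adults by 0.99 ± 0.43 (adjusted p = 0.0879), and neither passed. The first passed with quantile normalization (2.12, adjusted p = 0.00273) and with median centring (1.71, adjusted p = 0.00317), as well as with the 2 groups fitted alone (adjusted p = 0.0272) and without uninjured adult replicate 2 (1.40, adjusted p = 0.0218) or microfractured replicate 1 or 2 (adjusted p = 0.0363 and 0.0357). The second passed without microfractured replicate 1 (1.38, adjusted p = 0.0248).

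**Figure D1:**
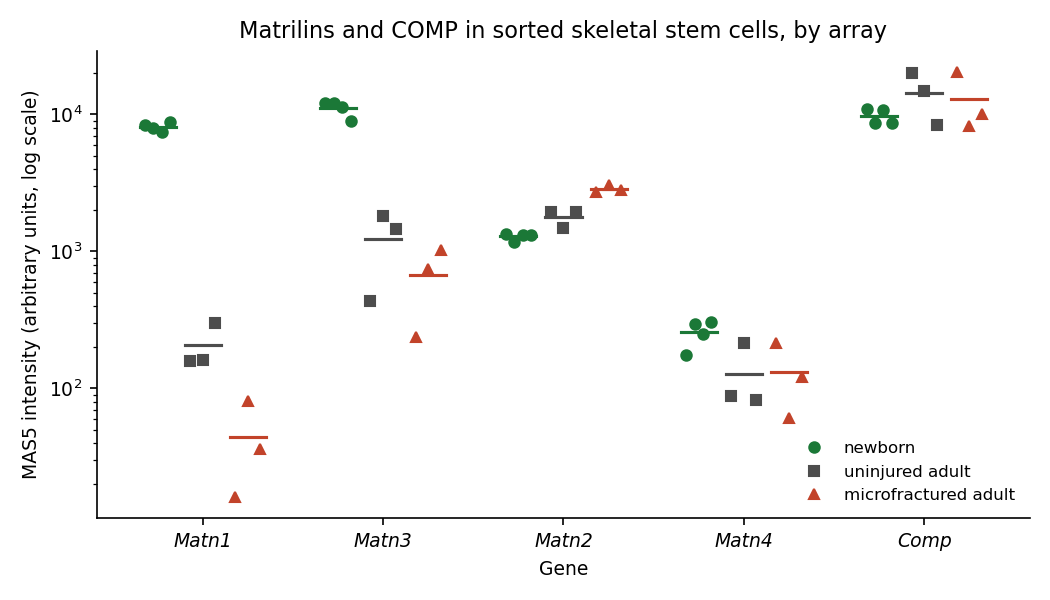
MAS5 intensity (log axis) of the 5 genes on each of the 10 sorted-cell arrays. Points are arrays, horizontal bars are group means. Matn1 and Matn3 in newborns stand above every adult array, Matn2 is highest after microfracture, and the groups overlap for Comp.

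Many genes differed between these groups, so counts of members say little by themselves. Between newborns and uninjured adults 3 of 5 members were called, 2 higher and 1 lower, while 54.6% of all genes tested were called, 25.2% higher and 29.4% lower. The groups did not overlap for 3 of 5 members and for 61% of all genes. Between newborns and microfractured adults 3 of 5 were called, again 2 higher and 1 lower, against 36.7% of all genes, 18.4% higher and 18.3% lower. The groups did not overlap for 3 of 5 members and for 42.8% of all genes. After microfracture 2 of 5 were called, 1 higher and 1 lower, against 33.1% of all genes, 13.3% higher and 19.8% lower, and 2 of 5 did not overlap, against 41.1% of all genes. The lower one was Matn1, at the low end of the signal in both groups. The comparisons share groups of arrays, so their values are given side by side and not as independent results.

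**Figure D2:**
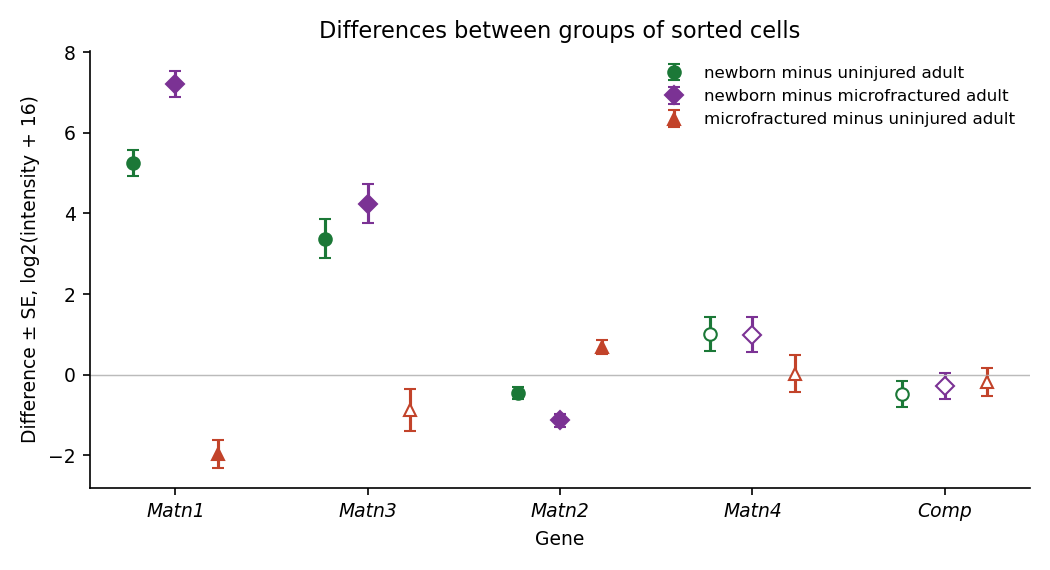
Difference between groups of sorted cells in log2(intensity + 16), with limma's standard error, for each of the 5 genes and 3 comparisons. Filled symbols passed an adjusted p of 0.05. Matn1 reaches 5.25 and 7.22 above the adult groups, and the 3 Comp values all include 0 within 2 standard errors.

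The genes with the most similar course over the 10 sorted-cell arrays were found by the root mean square difference of centred log2 values, among 10409 genes with official symbols. Closest to Matn1 were Xist (0.70), Epyc (1.03), which encodes the cartilage proteoglycan epiphycan, and Asb4 (1.09). Closest to Matn3 were Klf15 (0.48), Mpzl2 (0.49) and Col9a2 (0.52), a chain of the collagen IX that matrilins bind. Closest to Matn2 were Ehd4 (0.12), Acot9 (0.16) and Dnajb4 (0.16). Closest to Comp were Vim (0.20), which encodes the intermediate filament vimentin, Selenbp1 (0.20) and Fuom (0.20), and closest to Matn4 were Prdm4 (0.29), Gna12 (0.31) and Med12 (0.32).

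Xist, the RNA that silences an X chromosome in female cells, moved with the age groups. Its intensity was 5943 to 7008 on the 4 newborn arrays, 134 to 325 on the uninjured adult arrays and 15.1 to 70.9 on the microfractured ones. Eif2s3y, a gene of the Y chromosome, read 555 to 671 on newborn arrays, 1037 to 1285 on uninjured and 1359 to 1877 on microfractured adult arrays. Of the other Y-linked genes, Kdm5d and Uty were also lowest in newborns. Ddx3y was not, at 669 to 764 on newborn, 392 to 984 on uninjured and 739 to 1960 on microfractured adult arrays. Newborn sorted cells thus held both Xist and Y-linked RNA, and the sex of the animals is not given in the sources used here. In bulk tissue newborn replicate 1 lay in the range of the adults, with scores of -45.9 to -22.1 on the 3 Xist probe sets and 97.1 for the Y-linked Ddx3y on probe set 1426438_at. Newborn replicate 2 scored 62.7 to 88.0 for Xist and 2.53 for Ddx3y, and replicate 3 scored 6.67 to 77.5 and 2.68. Other Y-linked probe sets did not all follow this order. Kdm5d on 1452562_at scored 96.3, 92.6 and 52.2 in newborn bulk replicates 1, 2 and 3. Eif2s3y scored 35.05, 91.2 and -19.2 on 1431642_at, and 92.8, -13.8 and 49.1 on 1417210_at. Matn1 scored 46.2 in newborn bulk replicate 1 and 52.3 and 44.6 in replicates 2 and 3. The part of sex in the sorted-cell and bulk differences was not tested.

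**Figure D3:**
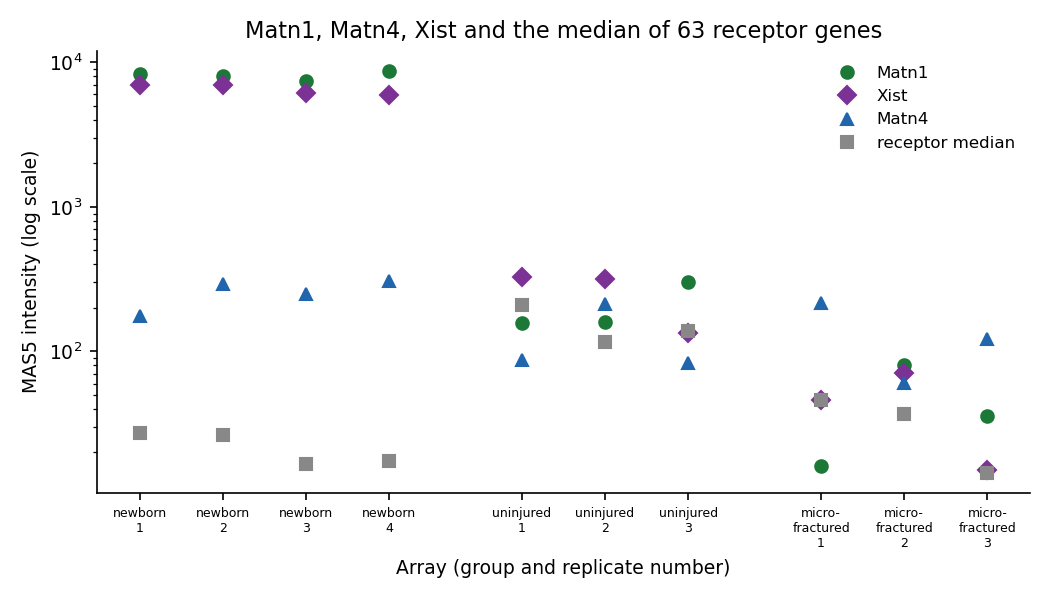
MAS5 intensity (log axis) of Matn1, Xist and Matn4, and the median over 63 chemosensory receptor genes, on each sorted-cell array by group and replicate number. Matn1 and Xist are high in the 4 newborn arrays, and in adults both lie near the receptor median, which is higher in the uninjured adults.

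Markers of other cells differed between the groups. The summed intensity of 6 myeloid markers, of which 6 were found, was 35291 to 50000 on uninjured adult arrays, 7111 to 20844 on microfractured ones and 2157 to 2908 on newborn ones. Ptprc, which encodes the CD45 that the sort excluded, averaged 3462 in uninjured adults, 651 after microfracture and 58.7 in newborns, and the macrophage gene Lyz2 averaged 16418, 4996 and 668. Of the 5 erythroid markers 4 were found, summing to 5260 to 6268, 1188 to 2217 and 289 to 731 in the same order. Of 5 osteoblast markers 4 were found, and they summed to 16558 to 23306 on uninjured adult arrays, 17639 to 20510 on microfractured ones and 1428 to 2125 on newborn ones, with 4 of 4 tested lower in newborns than in either adult group. The 5 tendon and ligament markers, Thbs4 among them, summed to 13636 to 21049, 12356 to 18551 and 8184 to 8662 in that order, and 2 of 4 tested were lower in newborns. Sums of endothelial markers (985 to 2971, 236 to 806 and 174 to 372) and adipocyte markers (953 to 1767, 170 to 724 and 289 to 462) were highest in uninjured adults. The 6 chondrocyte markers summed to 31523 to 47302 in uninjured adults, 30422 to 39360 after microfracture and 49795 to 60077 in newborns. Cartilage genes were thus detected in every group of the labelled stem cells. In newborns 5 of these markers were higher than in uninjured adults and 1, Col2a1, was lower. Against microfractured adults 4 were higher and 1 lower. Of all genes 25.2% were called higher and 29.4% lower against uninjured adults, and 18.4% and 18.3% against microfractured adults. The part of these cells in the member differences was not tested.

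Of 15 genes for collagens, proteoglycans and fibronectin that the members bind, 7 were higher and 3 lower in stem cells of newborns against those of uninjured adults, and 5 did not pass. The median difference was 0.40, against -0.02 for all genes, of which 25.2% were called higher and 29.4% lower. Col9a2 was higher by 3.62 ± 0.32 (4802 ± 416 and 408 ± 202 intensity units, SD, n = 4 and 3; limma adjusted p = 2.74e-06), and Col11a2, a chain of collagen XI, by 3.49 ± 0.23 (adjusted p = 1.97e-07). Col9a1, another collagen IX chain, was higher by 1.78 ± 0.29 (adjusted p = 0.000298). Col2a1, the main collagen of cartilage, differed the other way by -1.36 ± 0.22 (5773 ± 1083 and 14916 ± 3746; adjusted p = 0.000271). The other lower genes, named after their values were seen, were Dcn (-1.61), which encodes decorin, and Fn1 (-1.15), which encodes fibronectin. With median centring 12 of the 15 were higher and 2 lower, while 5702 of all 10893 genes were called higher and 1789 lower.

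Against microfractured adults, 6 of the 15 were higher in newborns, 1 was lower and 8 did not pass, while 18.4% of all genes were called higher and 18.3% lower. Col9a2 (4.24 ± 0.32), Col11a2 (2.88 ± 0.23) and Col9a1 (2.50 ± 0.29) were again among the higher, and Col2a1 was the lower one (-1.09 ± 0.22, limma adjusted p = 0.00181). After microfracture only Col6a2, a chain of the beaded-filament collagen VI, passed (1.09 ± 0.25, adjusted p = 0.00702), and 14 did not. That count was sensitive to scaling and to single arrays: 6 passed with median centring, 3 with quantile normalization, 4 without microfractured replicate 1 or replicate 2 and 3 without uninjured adult replicate 1. Of all 10893 genes, 3606 passed in the main fit, 5811 with median centring and 2807 with quantile normalization.

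Among 8 regulators, 7 were tested in sorted cells. In newborns against uninjured adults 4 were higher and 3 did not pass, while 54.6% of all genes were called, 25.2% higher. The 4 were Sox9 at 1.79 ± 0.26 (limma adjusted p = 0.000109), Sox6 at 1.71 ± 0.24, Sox5 at 1.41 ± 0.18 and Nfib, a nuclear factor I gene, at 0.64 ± 0.16. After microfracture Sox5 rose by 1.34 ± 0.19 (adjusted p = 0.00104) and Sox9 by 1.22 ± 0.27 (adjusted p = 0.00654). Sox6 averaged 778 ± 79.8 in uninjured adults and 861 ± 355 after microfracture (SD, n = 3 and 3; adjusted p = 0.865) and was higher in newborns than in microfractured adults by 1.64 ± 0.24 (adjusted p = 0.000171). Nfic, another nuclear factor I gene, was lower in that comparison (-0.64 ± 0.23, adjusted p = 0.0436), a call that remained in 8 of 19 alternatives, and 5 did not pass. It ended with either other scaling, either other filter and the replicate block, and without newborn replicate 1, 2 or 3, uninjured adult replicate 2 or microfractured replicate 1 or 3. With median centring 7 of the 7 regulators were higher in newborns against uninjured adults, and 6 rose after microfracture. Of all 10893 genes, 5702 were called higher in newborns with that scaling and 4882 after microfracture.

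The other thrombospondins split. Thbs4, a thrombospondin of tendon and muscle, averaged 287 ± 48.9 in newborns and 5631 ± 1019 in uninjured adults (SD, n = 4 and 3; difference -4.22 ± 0.26, limma adjusted p = 1.36e-07), and Thbs2 differed by -1.33 ± 0.21. Thbs3 was higher in newborns by 2.38 ± 0.21 (adjusted p = 3.07e-06) and rose after microfracture by 1.02 ± 0.23 (adjusted p = 0.00637). Thbs1 fell after microfracture by 1.54 ± 0.33 (adjusted p = 0.00513). Of 4 such genes, 1 rose and 1 fell after microfracture, 1 was higher and 2 lower in newborns than in uninjured adults, and 2 were higher and 2 lower than in microfractured adults. The shares of all genes called higher and lower were 13.3% and 19.8%, 25.2% and 29.4%, and 18.4% and 18.3% in that order. With median centring the fall of Thbs1 was no longer called, and 2 of the 4 rose after microfracture, as did 4882 of all 10893 genes. Among 4 proteases known to cut aggrecan or COMP, only Adamts5 passed the filter. It averaged 117 ± 24.3 in newborns and 2746 ± 349 in uninjured adults, a difference of -4.38 ± 0.21 (adjusted p = 1.91e-08). Adamts5 passed the filter through adult arrays alone, so this difference was in part set by the filter.

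**Figure D4:**
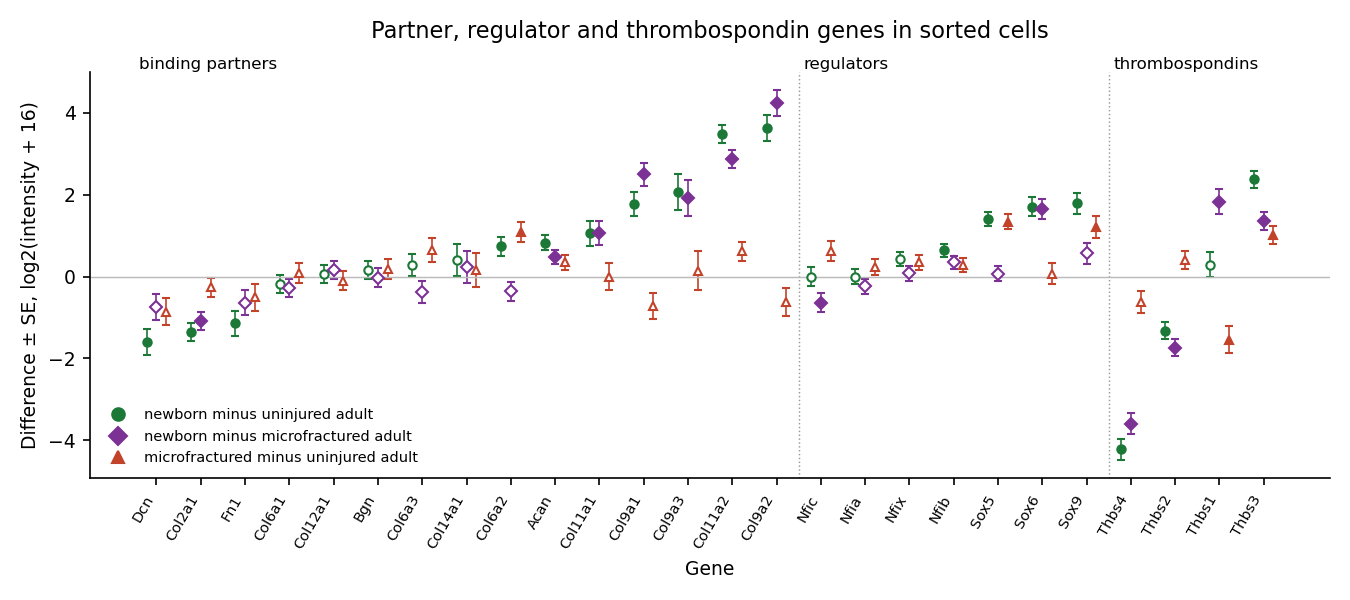
Difference in log2(intensity + 16) with limma's standard error for the partner, regulator and thrombospondin genes tested in sorted cells, in 3 comparisons. Filled symbols passed an adjusted p of 0.05. Collagen IX and XI chains are higher in newborns, and Col2a1 and Thbs4 are lower.

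In bulk tissue the values are activity scores between -100 and 100, so differences are in score points. Less RNA of a gene in bulk tissue can mean fewer cells of a type or less RNA per cell, which cannot be told apart. Matn1 scored 46.2, 52.3 and 44.6 in newborns, -12.8, -2.42, -13.7, -40.8 and -3.60 in uninjured adults, and -1.69, -12.1 and -14.9 after microfracture. All newborn arrays lay above all adult arrays. Across 16587 genes tested in limma, newborns were higher than uninjured adults by 62.4 ± 13.7 points (adjusted p = 0.0224). Without uninjured adult replicate 3 or 4, or newborn replicate 3, the adjusted p was 0.0571, 0.0610 and 0.0540.

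Comp scored 75.5, 65.5 and 74.7 in newborn bulk tissue. It scored 40.6, -7.70, -6.03, -14.0 and -43.1 in uninjured adults and -4.69, -6.85 and 29.7 after microfracture. Newborns were again above all adults, whereas the sorted-cell groups overlapped; the difference between the tables was not tested. The newborn difference of 78.0 ± 20.2 points passed (limma adjusted p = 0.0446) but did not hold when any of 10 of the 11 arrays was left out (adjusted p 0.0553 to 0.111), the exception being uninjured adult replicate 1. Markers of several cell types moved with both genes. The mean score of chondrocyte markers was 88.6 to 97.4 on newborn arrays, 27.4 to 52.6 on uninjured and 32.7 to 53.2 on microfractured adult arrays, and that of the 5 tendon and ligament markers was 77.8 to 87.5, 14.2 to 49.2 and 49.4 to 53.5. Myeloid markers moved the other way, at -28.9 to -3.62, 58.0 to 75.8 and 51.4 to 57.7, as did erythroid markers, at -54.1 to -28.6, 22.6 to 39.3 and 8.70 to 21.5. Their part in the result was not tested.

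Between newborn and uninjured adult bulk tissue 2 of the 4 members tested were called, both higher, while 6.55% of all genes were called and 2.07% were called higher. The groups did not overlap for 4 of the 4 and for 16.5% of all genes. Between newborn and microfractured bulk tissue 0 of 4 were called, with 1.56% of all genes called, and the groups did not overlap for 3 of 4 members and 19.8% of all genes. Comp differed by 65.8 points and Matn1 by 57.2 points there without passing (unadjusted p = 0.0142 and 0.00322, adjusted p = 0.179 and 0.0942 in limma), and the other 2 had unadjusted p of 0.221 and 0.856. Between microfractured and uninjured bulk tissue 0 of 16587 genes passed in limma, members included, and 1645 had an unadjusted p below 0.05, of the members 0. These groups did not overlap for 1 of 4 members, Matn2, and for 9.68% of all genes.

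Bulk Matn2 scores were above those of uninjured adults in newborns, the reverse of the order in sorted cells. On its main probe set, 1455978_a_at, newborns scored 71.8, 99.6 and 48.1 and uninjured adults 22.7, 27.6, 21.8, 22.6 and 19.6, with microfractured adults at 45.3, 62.6 and 38.4. Both newborns and microfractured adults lay above all uninjured adults. The newborn difference of 50.3 ± 16.8 points did not pass (limma adjusted p = 0.109), nor did that after microfracture (25.9 ± 16.8, adjusted p = 0.639). Without limma's mean-variance trend, or with the mean of all probe sets of a gene, the newborn difference from uninjured adults passed. The second probe set, 1419442_at, varied more, with newborns at 71.0, 14.8 and 74.4, uninjured adults at -6.49, -0.25, -9.01, 14.3 and -56.7, and microfractured adults at 42.5, -13.1 and 12.5.

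On its main probe set, 1422148_at, Matn3 scored near the upper bound in most bulk arrays, which leaves little room for a difference there. On that probe set newborns scored 99.2, 98.6 and 99.6, microfractured adults 94.1, 90.9 and 96.2, and uninjured adults 80.03, 96.6, 95.8, 95.1 and -36.4. Uninjured adult replicate 5 stood apart, and it did not on the second probe set, 1455948_x_at, where the uninjured adults scored 68.5 to 81.6. Newborns scored 87.6, 100 and 88.6 on the second probe set and microfractured adults 36.5, 73.65 and 74.45, so newborns lay above every adult array. Tested as a probe set of its own, it was higher in newborns by 15.3 ± 9.79 points against uninjured adults (limma adjusted p = 0.405). Against microfractured adults it was higher by 30.5 ± 10.9 points (adjusted p = 0.201), and neither passed. On 1422148_at the difference between newborns and uninjured adults was 32.9 ± 25.9 points (limma adjusted p = 0.518). It was 7.28 points without uninjured adult replicate 5 (adjusted p = 0.422). Matn4 scored between -99.5 and -53.8 in all 11 bulk arrays and was not tested there. Fitted without the filter, it differed by -16.8 ± 10.8 points between newborns and uninjured adults (adjusted p = 0.444).

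**Figure D5:**
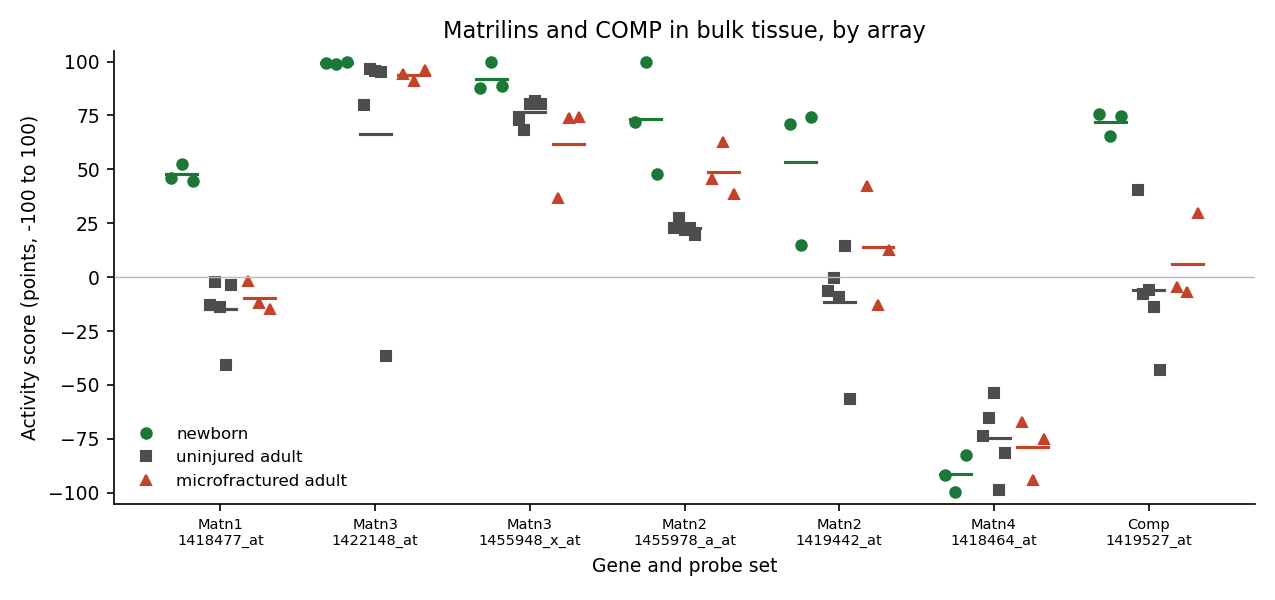
Activity score (points) of each probe set of the 5 genes on the 11 bulk arrays. Points are arrays, horizontal bars are group means. Newborns stand above the adults for Matn1 and Comp, Matn3 is near 100 in most arrays, and uninjured adult replicate 5 lies at -36.4 on one of the Matn3 probe sets.

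Of 14 binding partners tested in bulk tissue, 4 were higher in newborns and 10 did not pass against uninjured adults: Col6a3 by 74.9 ± 15.8 points (limma adjusted p = 0.0193), Col6a1 by 71.6 ± 15.9, Col14a1, a fibril-associated collagen, by 90.5 ± 21.4 and Col9a2 by 57.8 ± 14.3 (adjusted p = 0.0368). Of all genes tested in that comparison, 2.07% were called higher. The number of partners called was 0 without uninjured adult replicate 2 and 1 without uninjured adult replicate 3 or newborn replicate 2. It was 2 without uninjured adult replicate 4 or 5 or newborn replicate 1 or 3. Of the regulators only Nfic passed, by 82.5 ± 21.6 points (adjusted p = 0.0466), and that call was lost without any 1 of 8 arrays. Sox9 differed by 129 ± 35.6 points and did not pass (limma adjusted p = 0.0571). Thbs3 (92.6 ± 20.8, adjusted p = 0.0245) and Thbs2 (79.0 ± 17.0, adjusted p = 0.0207) were higher, and 0 of these 2 passed without uninjured adult replicate 3 or newborn replicate 3, and 1 without uninjured adult replicate 2 or 4 or newborn replicate 2. Thbs2 thus was higher in newborn bulk tissue and lower in newborn sorted cells, a difference that was not tested. None of these lists held a gene that passed in the other bulk comparisons.

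The 3 arrays of factor-treated joints allow no test. Matn1 scored -51.3 with PBS, -67.5 with BMP2 and -64.1 with VEGFR1. Comp scored 31.6, 33.7 and 16.1 in that order, and Matn2 scored 50.1, 59.6 and 51.6. Matn4 scored -87.0, -90.8 and -96.6. Matn3 scored -75.8, -76.1 and -55.3 on probe set 1422148_at but 26.6, -2.69 and 38.5 on 1455948_x_at, so its probe sets disagreed in level. Of the 5 members 0 differed by more than 50 points between any of these arrays, while 11.6% of all 20889 genes did between BMP2 and PBS, 10.7% between VEGFR1 and PBS and 11.7% between BMP2 and VEGFR1.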

How the data were processed

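Gene expression was measured on Affymetrix arrays of 24 samples, grouped by their titles. For 10 sorted-cell arrays the authors deposited linear intensity per gene, made with MAS5 per the submitters' processing notes. Its 2% trimmed mean was 490 to 495 on all arrays, so they had been scaled alike. For 14 other arrays the authors deposited an activity score from -100 to 100 for 45101 probe sets, whose calculation is not given in the sources used here. Each gene was read from its probe set with 1 symbol and the highest mean over the bulk arrays.

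The test used log2(intensity + 16), a scale on which low genes change less than their true fold, and the scores as deposited. Genes above the table's median (250 units, or -16.4) in at least 3 arrays were fitted with limma 3.58.1 in R 4.3.3 (lmFit, eBayes with trend, 3 groups per fit, 2-sided, Benjamini-Hochberg over all genes, threshold 0.05). Errors with differences are standard errors that pool all groups. The number of arrays limits the precision. The fits were tested on simulated data with 200 changed genes, for microfractured against uninjured adults. The sorted-cell fit recovered 86.5% of changes of 2 log2 units. In bulk tissue 16.5% of changes of 80 score points were recovered, so a bulk difference that did not pass does not show that there was none.

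The members and lists were chosen with earlier results of these data known. Named were the members, up to 4 called genes per list and comparison with the smallest p, the 3 genes most like each member, and Ptprc and Lyz2 among cell markers. Xist, Y-linked genes and the receptor genes were added after seeing the data. Deviations of same-numbered arrays from their group means correlated at -0.22 to 0.28, and numbers were not treated as pairs. The 0.28 was between replicate 1 of uninjured and replicate 1 of microfractured adult sorted cells, where the same number gave the highest correlation. A shared origin of those arrays was not tested. Alternatives were the filter, pseudocount, scaling, trend, groups fitted, probe set choice, a replicate block and leaving out each array. Protein sequences were not used here.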

Additional observations from a re-analysis of the deposited data

Results flagged for a closer look

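Of 12 sets of member values from groups of 4 or more arrays, 2 held an array that lay apart by Dixon's test, which chance does in about 1 of 20 groups. In bulk tissue, uninjured adult replicate 5 scored -36.4 for Matn3 on probe set 1422148_at, where the other 4 arrays scored 80.03 to 96.6. In sorted cells, newborn replicate 2 read 1165 for Matn2, where the other 3 arrays read 1323 to 1349.

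Matn2 differed between newborns and uninjured adults in opposite directions in sorted cells, where the log2 difference was -0.45, and in bulk tissue, where it was 50.3 score points. The groups did not overlap in either. The units differ and the difference was not tested.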

How the results depend on the processing

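Of 10 called member differences, recomputed under 194 alternative values in all, 164 kept their direction and call, 29 no longer passed and 1 reversed. Of 17 that were not called, 346 values gave 11 calls and 13 reversals. In sorted cells the 2 members called after microfracture became 0 with quantile normalization and 1 with the adult groups fitted alone. In bulk tissue the 2 members called between newborns and uninjured adults became 0 with a filter at the 75th percentile, with the 2 groups fitted alone and with a replicate block. They became 1 with quantile normalization or median centring, and leaving out 1 array gave 0 to 2. The count rose to 3, with Matn2 added, without a mean-variance trend and with the mean of all probe sets. Between newborns and microfractured adults in bulk tissue 1 member was called without a mean-variance trend. The number of members whose groups did not overlap in either table and had opposite order was 1, Matn2, and became 0 with median centring and 2 with the mean of all probe sets, and 1 to 2 when 1 array was left out.

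Signs turned for Matn2 between newborns and uninjured adults with median centring (0.25), and for Comp with median centring (0.22 there and 0.46 after microfracture) and quantile normalization (0.13 after microfracture). Leaving out 1 array moved Matn4 after microfracture between -0.37 and 0.43, Comp after microfracture between -0.58 and 0.086, and Comp between newborns and microfractured adults between -0.55 and 0.10. In bulk tissue after microfracture, Matn3 turned to -15.2 on its other probe set, also the choice by mean over 14 arrays, Comp to -2.90 with a replicate block, and Matn1 ranged from -1.42 to 8.17 when 1 array was left out. The causes were not tested. Of the calls between newborns and uninjured adults, the share with newborns higher was 46.1%, 54.3% with quantile normalization and 76.1% with median centring, and after microfracture 40.3%, 53.2% and 84.0%. The replicate block ended the calls of Matn1 (57.3, adjusted p = 0.186) and Comp (62.9, adjusted p = 0.275) in bulk tissue and of Matn2 (-0.46, adjusted p = 0.0716) in newborn against uninjured adult sorted cells, and changed no other member's call. Between newborn and uninjured adult bulk tissue the block left 0 of all 16587 genes called, against 1087 in the main fit. Whether same-numbered arrays share an origin is not given in the sources used here.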
